A study of Mus musculus with 30 samples.

Results

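Collagen genes were followed through 5 ages of the embryonic mouse ovary. They were taken as the genes whose single symbol in the platform annotation has the form Col, a type number, the letter a and a chain number. The rule uses names and no measured value, and it found 40 of the 15964 genes that the arrays name with 1 symbol. These genes had 71 probe sets: array A held 44 of them, array B 12 and array C 15. By textbook type, 10 of the genes encode fibrillar collagens, 6 the type IV chains of basement membranes, and 24 belong to other types. Col20a1, Col24a1, Col28a1 and Col6a5 had no probe set with their symbol alone and were not analysed here.

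The groups are ages only: pooled ovaries of BL/6-129 mouse embryos at 11.5, 12.5, 14.5, 16.5 and 18.5 days post coitum (dpc), with total RNA extracted with TRIzol and no treatment, mutant or control group. Sexing of gonads by Sry PCR is stated in the labels of 11.5 and 12.5 dpc. Every age has 2 numbered samples, each measured on 3 Affymetrix array types (A, B and C) that carry different probe sets, which gives 30 arrays. Whether both samples of an age are separate pools is not stated, so the spread between them may be technical. The p-values set differences between ages against this spread within ages. In whole ovaries, fewer cells of a type and less RNA per cell cannot be told apart.

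Collagens are proteins of the matrix between cells, built from 3 chains wound into a triple helix. Fibrillar collagens, above all types I, III and V, assemble into the banded fibrils that give connective tissue its tensile strength. Type IV chains form the sheet-like network of basement membranes, type VI forms beaded filaments between the fibrils and basement membranes, and fibril-associated collagens coat the fibrils. In the fetal ovary, stroma and blood vessels surround cords of germ cells and pregranulosa cells, and a basement membrane separates the cords from the stroma.

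Values are signals in array units, which the authors scaled to a mean of 125 on each array. A level is compared only within a probe set, since signals of different probe sets depend on their probes. Differences are given on the log2(signal + 16) scale with the standard error of a limma model over all ages. On this scale the change of a weakly detected gene comes out smaller than on the signal scale. A gene was called when its p-value, adjusted by the Benjamini-Hochberg method over all 24825 tested probe sets of the 3 array types, was under 0.05. "Rose" and "fell" refer to called genes alone. Testing required a signal of 50 or more on 2 or more of an array type's 10 arrays. Of the 71 collagen probe sets 51 met this, and they stand for 31 genes. Correlations of log2 signal between the 2 samples of an age ran from 0.950 to 0.974 for array A, from 0.877 to 0.920 for B and from 0.856 to 0.896 for C, so array A values are the most precise.

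The samples of 2 ages stood apart for the collagens before any comparison between ages. At 16.5 dpc, 28 of the 30 tested collagen probe sets of array A were higher in replicate 1 than in replicate 2, with a median difference of 0.34 on the log2 scale, against 52.4% of all tested probe sets of that array. At 11.5 dpc the order was the opposite, with 3 of 30 higher in replicate 1, a median difference of -0.36, against 43.2% of all. Summed signals of the stromal marker list moved the same way at 16.5 dpc (2035 in replicate 1 and 1521 in replicate 2) but were nearly equal at 11.5 dpc (2194 and 2228). Of the tested stromal markers, Ptch1 alone was lower in replicate 1 at 16.5 dpc (200.6 and 332.8). The smooth muscle and pericyte list had sums of 1244 and 948 at 16.5 dpc. At 11.5 dpc it had 880 and 794, the opposite of the collagen order. The part of both lists' cell types in the collagen values was not tested. Many results that rest on the samples of these 2 ages are given below with and without 1 of them. The ages of the highest mean and the type levels per sample are given with all samples alone.

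Over the whole window, the collagen genes that changed between the first and last age all rose. Of the 31 tested genes, 5 rose between 11.5 and 18.5 dpc and 0 fell, against a background of 17.5% of all 12589 tested genes called in either direction, 9.14% rising and 8.37% falling. The 5 were the fibrillar genes Col1a1 and Col3a1, the type VI genes Col6a1 and Col6a2, and the fibril-associated gene Col16a1. The share that rose, 5 of 31, was above the background, and the share called in either direction was close to it. The estimated change was above 0 for 27 of the 31 genes, with a median of 0.54, whereas the median over all tested genes was 0.02. Leaving out either 18.5 dpc sample left 3 of the 5 calls: Col1a1, Col6a1 and Col6a2 without replicate 1, and Col1a1, Col6a1 and Col16a1 without replicate 2.

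**Figure D1:**
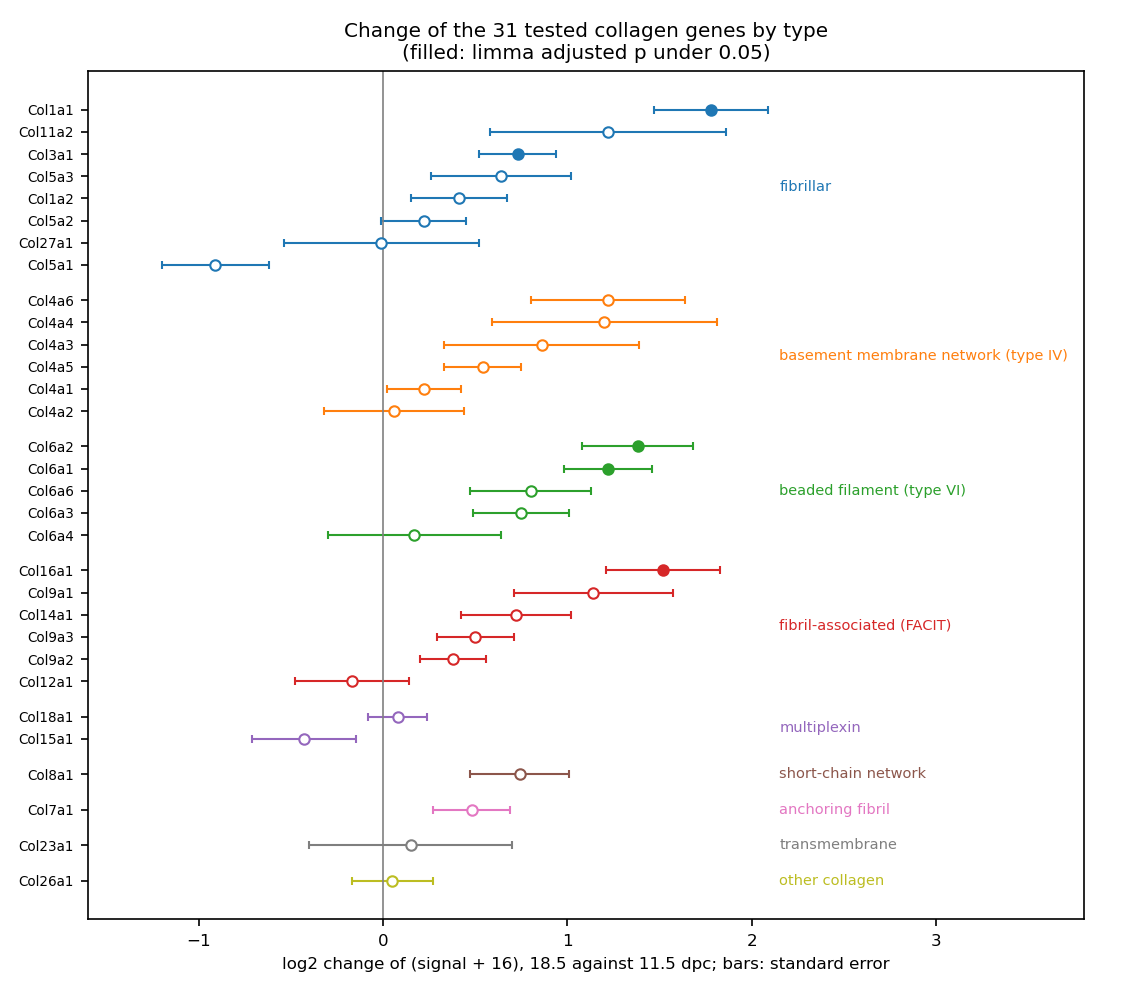
Log2 change of (signal + 16) between 11.5 and 18.5 dpc for the 31 tested collagen genes, grouped by collagen type, with 1 probe set per gene, bars for the standard error and filled points for genes called by limma. Most points lie to the right of 0, the filled ones from 0.73 (Col3a1) to 1.78 (Col1a1), and Col5a1 lies at -0.91.

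A straight line through the 5 age means called more genes than the comparison of the end points. With this trend test, 11 of 31 genes rose with age and 1 fell, beside a background of 25% of all tested genes called, 13.1% rising and 11.9% falling. The 11 were Col1a1, Col3a1, Col6a1, Col6a2, Col6a3, Col6a6, Col14a1, Col16a1, Col4a5, Col4a6 and Col8a1, at 0.10 to 0.28 log2 units per day, and the gene that fell was Col5a1. The count was 6 without replicate 1 and 5 without replicate 2 of 18.5 dpc, and 7 genes were called without both samples of 16.5 dpc. The trend calls of Col1a1, Col6a1, Col6a2 and Col16a1 held when any 1 sample was left out. Those of Col3a1 and Col4a6 were lost without replicate 2 of 18.5 dpc alone, and that of Col6a6 without replicate 1 of 18.5 dpc alone. Those of Col4a5, Col5a1, Col6a3, Col8a1 and Col14a1 were lost without either sample of 18.5 dpc. They were also lost without replicate 1 (Col4a5) or replicate 2 (the other 4) of 11.5 dpc, without replicate 1 (Col6a3, Col8a1, Col14a1) or replicate 2 (Col5a1, Col14a1) of 12.5 dpc, and without replicate 1 (Col8a1) or replicate 2 (Col14a1) of 16.5 dpc. The F test, which asks for any difference among the 5 ages, called 10 of 31 genes beside a background of 17.8%. It called 5 genes when replicate 1 of 16.5 dpc or any 1 sample of 18.5 dpc was left out, and 4 when both samples of 16.5 dpc were. Both tests called Col1a1, Col6a1 and Col16a1 in each of the settings named here.

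Between neighbouring ages few single genes were called. From 14.5 to 16.5 dpc 2 of 31 genes rose, Col1a1 and Col4a5, beside a background of 0.858% called and 0.334% rising, and 26 of the 31 estimates were above 0 with a median of 0.52 against -0.01 for all tested genes. These 2 calls were lost when any 1 of the 8 samples from 12.5 to 18.5 dpc was left out, whereas 5 genes were called when either 11.5 dpc sample was left out. In the other intervals limma called 0 collagen genes, beside backgrounds of 0.238% for 11.5 to 12.5 dpc, 2.17% for 12.5 to 14.5 dpc and 0.842% for 16.5 to 18.5 dpc. At an unadjusted p under 0.05 the counts were 8, 4 and 8 of 31 (25.8%, 12.9% and 25.8%), beside 12.4%, 16.7% and 14.5% of all tested genes. Medians were 0.35, -0.10 and -0.19 in these intervals, so the estimates were mostly above 0 in the first interval (26 of 31) and mostly below 0 in the last (21 of 31).

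Among the fibrillar collagens, 1 probe set each of Col1a1 and Col3a1 rose between the end points. Of 8 tested fibrillar genes, 2 rose between 11.5 and 18.5 dpc and 0 fell, beside 9.14% of all tested genes rising and 8.37% falling. The median change was 0.52 with a range from -0.91 to 1.78. Col1a1 encodes the alpha 1 chain of type I collagen, the main protein of most fibrils. Its probe set 94305_at gave signals of 158.4 and 290.5 at 11.5 dpc, 350.1 and 468 at 12.5 dpc, 365 and 504.6 at 14.5 dpc, 1775 and 951 at 16.5 dpc, then 720.6 and 834.5 at 18.5 dpc (replicates 1 and 2). Both samples of 16.5 dpc were above all others, and both samples of 11.5 dpc were below all others. Col1a1 rose by 1.78 ± 0.31 between 11.5 and 18.5 dpc (adjusted p = 0.0024), or by 1.37 without replicate 1 and 2.18 without replicate 2 of 11.5 dpc. It also rose by 1.56 ± 0.31 from 14.5 to 16.5 dpc (adjusted p = 0.042). Without replicate 1 of 16.5 dpc the adjusted p of the interval was 0.19. A second Col1a1 probe set, 103709_at, moved less, with means ± SD (n = 2) of 409 ± 50.1, 398 ± 157, 597 ± 6.79, 642 ± 5.8 and 630 ± 96.2 at the 5 ages in order. It rose in the trend test (0.11 ± 0.03 per day, adjusted p = 0.016), but its difference from 14.5 to 16.5 dpc was 0.10 ± 0.22.

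Col1a2 encodes the partner chain of type I collagen. Its signals were 289.9 and 528.3 at 11.5 dpc, 368.9 and 531.5 at 12.5 dpc, 383.3 and 411 at 14.5 dpc, 883.4 and 610.2 at 16.5 dpc, then 548.6 and 506.4 at 18.5 dpc. The pair of 16.5 dpc was the highest, and the samples of 11.5 and 18.5 dpc overlapped. Without replicate 2 of 11.5 dpc the difference between the end points was 0.83 and called (adjusted p = 0.044), and without replicate 1 it was -0.00. With all samples neither the end points (0.41 ± 0.26, adjusted p = 0.33) nor the step from 14.5 to 16.5 dpc (0.86 ± 0.26, adjusted p = 0.14) was called, and the second probe set of Col1a2 gave 0.04 ± 0.17 between the end points.

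Col3a1 encodes type III collagen, which mixes with type I in soft, extensible tissue. The probe set 98331_at gave 511.3 and 634.1 at 11.5 dpc, 622.2 and 765.1 at 12.5 dpc, 713.7 and 736.1 at 14.5 dpc, 1418 and 902.9 at 16.5 dpc, then 898.8 and 1016 at 18.5 dpc. All 4 samples of 16.5 and 18.5 dpc lay above the 6 of the younger ages. Col3a1 rose by 0.73 ± 0.21 between the end points (adjusted p = 0.033, but 0.14 when replicate 1 of 11.5 dpc was left out, 0.099 when replicate 1 of 18.5 dpc was, and 0.18 when replicate 2 of 18.5 dpc was). The other probe sets of Col3a1 had changes of -0.16 ± 0.27 (102990_at) and -0.19 ± 0.23 (161984_f_at) and were not called. The rise of Col3a1 thus rests on 98331_at alone and is uncertain too. Col5a2, described below, is its neighbour on chromosome 1.

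The promoter window of Col3a1, 250 bases before to 50 bases after its start in RefSeq (assembly GRCm38.p6, chr1:45311288-45311587, plus strand), is shown because, of the 2 fibrillar genes that rose between the end points, it is the one with a window in the table. It holds 1 match to TATAAA, marked in capitals, and none to CCAAT or GGGCGG, read on both strands.
Col3a1: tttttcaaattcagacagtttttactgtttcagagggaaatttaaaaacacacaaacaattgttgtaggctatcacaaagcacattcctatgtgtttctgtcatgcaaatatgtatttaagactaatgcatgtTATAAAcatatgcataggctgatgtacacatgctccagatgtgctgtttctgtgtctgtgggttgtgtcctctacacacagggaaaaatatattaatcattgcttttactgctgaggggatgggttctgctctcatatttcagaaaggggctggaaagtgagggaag
The TATA box motif TATAAA occurred in 13.6% of all 32851 windows of this length, the CCAAT motif in 37.4% and the GC box motif GGGCGG in 35.7%. Of the 40 collagen genes 31 had a window, 34 windows in all, and 5, 13 and 22 of these held the TATA, CCAAT and GC box motifs in that order. A match describes letters in this window and says nothing of a factor's binding.

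Type V collagen, encoded by Col5a1, Col5a2 and Col5a3, sits inside type I fibrils and limits their width. Col5a1 was the single collagen gene that fell in the trend test, and this rested on 1 of its 4 tested probe sets. That probe set, 135189_f_at on array C, gave 365.9 and 484.1 at 11.5 dpc, 580.3 and 642.1 at 12.5 dpc, 568.3 and 737.6 at 14.5 dpc, 712.7 and 392 at 16.5 dpc, then 215.7 and 216.9 at 18.5 dpc. The 18.5 dpc samples were the lowest of all. The trend was -0.13 ± 0.04 per day (adjusted p = 0.024), and the end points differed by -0.91 ± 0.29 without a call (adjusted p = 0.051). The array A probe sets 101080_at and 93472_at had changes of 0.35 ± 0.19 and 0.31 ± 0.18 between the end points, also uncalled, and their signs were the opposite. The suffix f in the probe set's name marks sets whose probes may match several transcripts, so the fall of Col5a1 is uncertain. The same limit holds for every other f set, among them those of Col6a1, Col6a3 and Bgn that rose.

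Col5a2 had 162.3 and 257.3 at 11.5 dpc, 257.6 and 273 at 12.5 dpc, 190.1 and 188.9 at 14.5 dpc, 503.7 and 327.2 at 16.5 dpc, then 222.7 and 261.5 at 18.5 dpc. Both 16.5 dpc samples were above the other 8. The F test called it (adjusted p = 0.042, and 0.22 without replicate 1 of 16.5 dpc), a call that was kept only when replicate 1 or 2 of 11.5 dpc or replicate 2 of 16.5 dpc was the sample left out, while the step from 14.5 to 16.5 dpc, 1.04 ± 0.23, had an adjusted p of 0.061. A second Col5a2 probe set, 163350_at on array B, had no such step (-0.13 ± 0.37), was highest at 12.5 dpc, had -0.53 ± 0.37 between the end points and was not called by the F test (adjusted p = 0.64). Col5a3, on array B, gave 73.1 and 35.9, 71.6 and 67.6, 39.2 and 68.7, 57 and 72.1, and 114 and 69.8 at the 5 ages in order. Its samples of 11.5 and 18.5 dpc overlapped, and the difference of 0.64 ± 0.38 was not called (adjusted p = 0.29) and ran from 0.25 without replicate 2 to 1.02 without replicate 1 of 11.5 dpc. The remaining tested fibrillar genes, Col11a2 (1.22 ± 0.64) and Col27a1 (-0.01 ± 0.53), had large errors and were not called. Col2a1 and Col11a1, the cartilage collagens, did not pass the filter: their highest signals were 36 and 42.7.

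**Figure D2:**
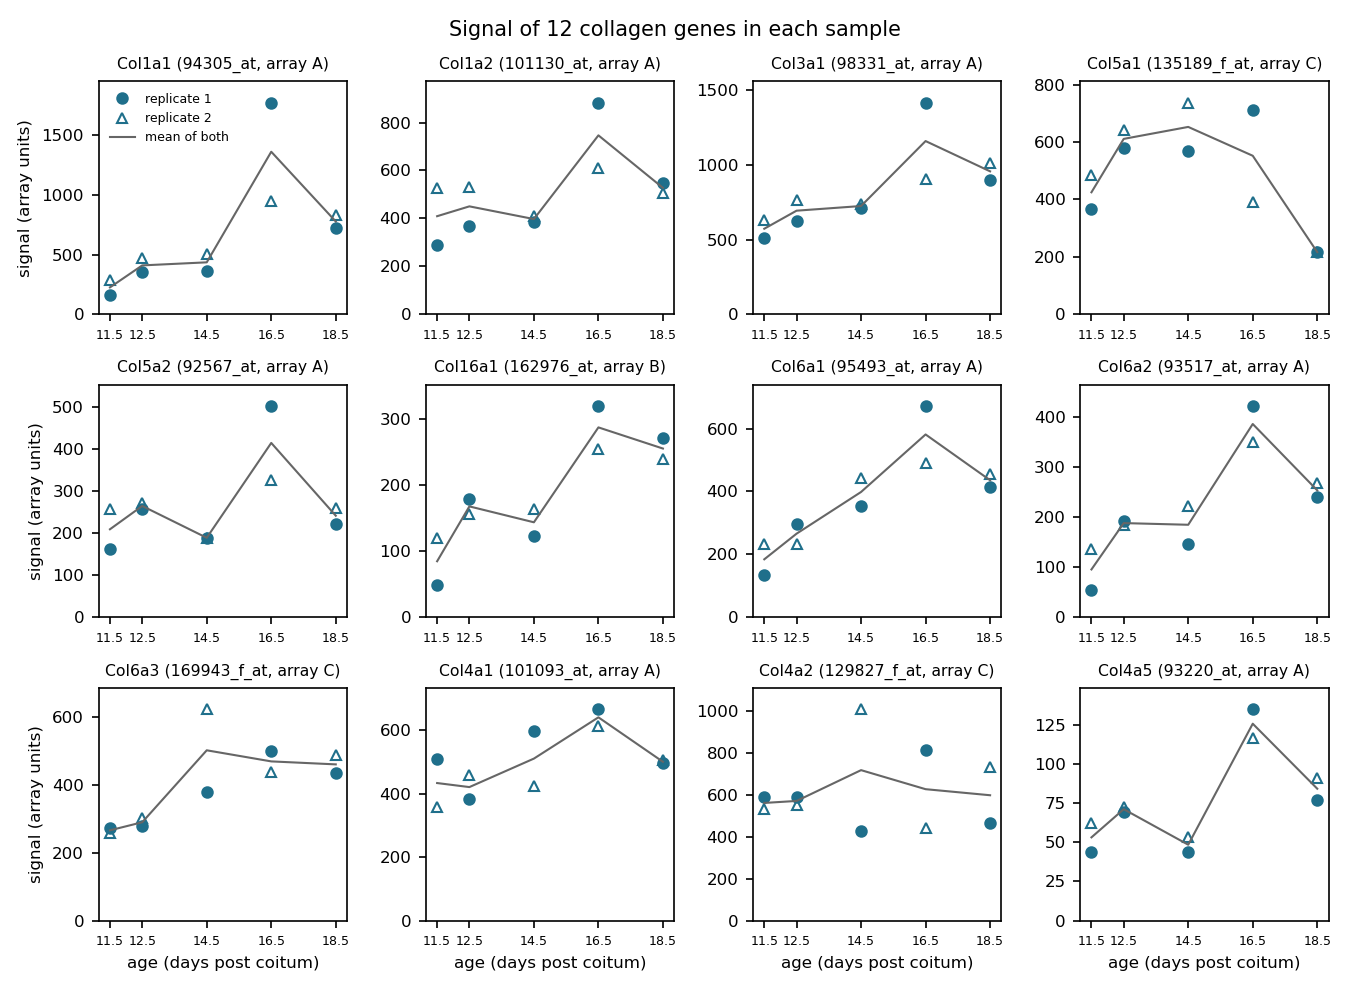
Signal in array units (linear axis from 0) against age for 12 collagen genes, each shown by 1 probe set, its brightest tested one, with filled circles for replicate 1, open triangles for replicate 2 and a line through the mean of both. In Col1a1, Col1a2, Col5a2, Col6a1, Col6a2, Col4a1 and Col4a5 both 16.5 dpc samples lie above all other samples of that gene.

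Among the fibril-associated collagens, 1 of 6 tested genes rose between the end points, beside 9.14% of all tested genes, and the median change was 0.61. Col16a1 encodes type XVI collagen, which binds fibrils and cell surfaces. On array B it gave 49.1 and 120.6 at 11.5 dpc, 178.6 and 157.1 at 12.5 dpc, 123.8 and 163.8 at 14.5 dpc, 319.9 and 254.8 at 16.5 dpc, then 271.2 and 239.5 at 18.5 dpc. The 4 samples of the last 2 ages were all above the other 6. Col16a1 rose by 1.52 ± 0.31 (adjusted p = 0.0054, range over alternatives 8.0e-04 to 0.052, the highest without replicate 1 of 18.5 dpc). Without replicate 1 of 11.5 dpc, its lowest sample, the change was 0.99. Its promoter window (GRCm38.p6, chr4:130047590-130047889, plus strand) is shown because it contrasts with that of Col3a1: it holds 3 matches, 1 to CCAAT and 2 to GGGCGG, and none to TATAAA.
Col16a1: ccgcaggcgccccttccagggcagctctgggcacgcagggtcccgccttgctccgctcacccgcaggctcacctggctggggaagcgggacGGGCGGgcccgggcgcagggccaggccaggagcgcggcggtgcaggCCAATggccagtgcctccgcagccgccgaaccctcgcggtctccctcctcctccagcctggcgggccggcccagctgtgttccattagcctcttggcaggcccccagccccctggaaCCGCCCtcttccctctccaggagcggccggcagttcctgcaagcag

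Col14a1, whose product coats fibrils in dense tissue, rose in the trend test on array C alone (0.13 ± 0.04 per day, adjusted p = 0.025). That probe set, 170682_i_at, gave 180.6 and 127.9 at 11.5 dpc, 149.3 and 142.6 at 12.5 dpc, 180 and 134.4 at 14.5 dpc, 260.5 and 309.1 at 16.5 dpc, then 231.9 and 292.3 at 18.5 dpc. Its samples of 16.5 and 18.5 dpc lay above those of the younger ages. The array A and B probe sets of Col14a1 had trends of 0.02 ± 0.04 and -0.06 ± 0.06 and were not called. Col9a2, a chain of type IX collagen, gave 85.5 and 96.7 at 11.5 dpc, 121 and 114.1 at 12.5 dpc, 129.4 and 115.3 at 14.5 dpc, 158.6 and 137.4 at 16.5 dpc, then 112.8 and 134.6 at 18.5 dpc. The 11.5 dpc samples were below the rest, yet the end points were not called (0.38 ± 0.18, adjusted p = 0.18). Col9a1, Col9a3 and Col12a1 had changes of 1.14 ± 0.43, 0.50 ± 0.21 and -0.17 ± 0.31 between the end points and no call in any of the 7 comparisons. A second Col9a3 probe set, 167372_f_at on array C, had the opposite sign (-1.62 ± 0.52, adjusted p = 0.053). Col19a1 and Col22a1 did not pass the filter, with highest signals of 31.3 and 9.9.

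Type VI had the most calls in the trend test: 4 of its 5 tested genes rose, beside 13.1% of all tested genes. Between the end points 2 of the 5 rose, beside 9.14% of all, and the median change was 0.80. Col6a1, Col6a2 and Col6a3 encode the chains of the classical type VI molecule. Col6a1 (95493_at) gave 135.3 and 233.6 at 11.5 dpc, 297.2 and 234.5 at 12.5 dpc, 354.4 and 442.3 at 14.5 dpc, 671.9 and 490.3 at 16.5 dpc, then 414.4 and 456.9 at 18.5 dpc. Each sample of 14.5 dpc and later was above each sample of the earlier ages. Col6a1 rose by 1.22 ± 0.24 between the end points (adjusted p = 0.0053), with an adjusted p of 0.0012 to 0.046 over the alternatives. Without replicate 1 of 11.5 dpc the change was 0.85, and without replicate 2 it was 1.58. The second probe set of Col6a1, 162459_f_at, rose as well (2.01 ± 0.29, adjusted p = 8.1e-04), from means of 20 ± 15.7 to 122 ± 6.58 (SD, n = 2).

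Col6a2 is its neighbour on chromosome 10 and gave 54.6 and 137 at 11.5 dpc, 193.3 and 183.7 at 12.5 dpc, 147 and 223.3 at 14.5 dpc, 422.9 and 350.4 at 16.5 dpc, then 239.7 and 268.2 at 18.5 dpc. The 11.5 dpc samples were the lowest and the 16.5 dpc samples the highest. Col6a2 rose by 1.38 ± 0.30 (adjusted p = 0.0088, and 0.062 without replicate 2 of 18.5 dpc), and the change was 0.82 without replicate 1 of 11.5 dpc. Col6a3 had a called probe set on each of 2 array types. On array C, 169943_f_at gave 274 and 258.8 at 11.5 dpc, 278.2 and 302.1 at 12.5 dpc, 380.9 and 624.1 at 14.5 dpc, 500.1 and 439.4 at 16.5 dpc, then 434.1 and 487.8 at 18.5 dpc. All samples from 14.5 dpc on were above the 4 younger ones. There the trend was called (0.12 ± 0.03 per day, adjusted p = 0.021) and the end points were not (0.75 ± 0.26, adjusted p = 0.073). On array A, 101110_at rose between the end points (1.15 ± 0.30, adjusted p = 0.022). All 4 type VI probe sets of array A rose between the end points, beside a background of 12.2% of that array's tested probe sets.

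The promoter window of Col6a1 (GRCm38.p6, chr10:76725995-76726294, minus strand, printed 5′ to 3′ of the gene) is shown because its gene had calls in both probe sets. It holds no match to any of these 3 motifs, so it is all in lower case.
Col6a1: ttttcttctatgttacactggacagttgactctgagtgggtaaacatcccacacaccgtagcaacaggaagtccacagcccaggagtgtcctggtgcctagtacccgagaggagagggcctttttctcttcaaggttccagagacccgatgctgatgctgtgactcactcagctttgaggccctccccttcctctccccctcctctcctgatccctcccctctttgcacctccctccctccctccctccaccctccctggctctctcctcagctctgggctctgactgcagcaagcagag
Col6a2 had 2 windows in the table, with 3 and 1 matches to GGGCGG and none to the other motifs.

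The other type VI chains, Col6a4 and Col6a6, resemble the alpha 3 chain. Col6a6 gave 67.1 and 36.2 at 11.5 dpc, 31.4 and 31.9 at 12.5 dpc, 59.4 and 60.6 at 14.5 dpc, 109.5 and 120.4 at 16.5 dpc, then 108.3 and 89.9 at 18.5 dpc. The samples of the last 2 ages were above all others. It rose in the trend test (0.18 ± 0.04 per day, adjusted p = 0.0074), and its end points differed by 0.80 ± 0.33 without a call (adjusted p = 0.12), or by 0.47 without replicate 2 of 11.5 dpc. The 3 probe sets of Col6a4 had changes of 0.17 ± 0.47, 0.82 ± 0.63 and -1.23 ± 0.63, and none was called.

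No type IV gene was called between the end points by limma, with 2 of 6 at an unadjusted p under 0.05, beside 33% of all tested genes. All 6 estimates were above 0, with a median of 0.70 and a range from 0.06 to 1.22. The value depends on the weak probe sets of Col4a3, Col4a4 and Col4a6: over the 3 genes tested on array A the median was 0.34. Col4a1 and Col4a2 encode the chains found in nearly all basement membranes. Col4a1 gave 511 and 357.2 at 11.5 dpc, 384.6 and 458.1 at 12.5 dpc, 599.1 and 423.4 at 14.5 dpc, 667.5 and 615.5 at 16.5 dpc, then 497 and 505.4 at 18.5 dpc. The 16.5 dpc samples were the highest, and those of the end points overlapped (0.22 ± 0.20, adjusted p = 0.52). Col4a2 (129827_f_at, array C) gave 589.7 and 531.1, 590.1 and 549.6, 425.8 and 1007.4, 810.5 and 441.3, and 463 and 731.1 at the 5 ages in order. Its replicates differed more than its ages did, and the end points gave 0.06 ± 0.38 (adjusted p = 0.95). The array A probe set of Col4a2, with closer replicates, gave 0.34 ± 0.21 (adjusted p = 0.31).

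The pair Col4a1 and Col4a2 lies head to head on chromosome 8, so their promoter windows overlap by 78 bases. The Col4a2 window (GRCm38.p6, chr8:11312555-11312854, plus strand) is shown with the bases shared with the Col4a1 window (chr8:11312777-11313076, minus strand) in capitals.
Col4a2: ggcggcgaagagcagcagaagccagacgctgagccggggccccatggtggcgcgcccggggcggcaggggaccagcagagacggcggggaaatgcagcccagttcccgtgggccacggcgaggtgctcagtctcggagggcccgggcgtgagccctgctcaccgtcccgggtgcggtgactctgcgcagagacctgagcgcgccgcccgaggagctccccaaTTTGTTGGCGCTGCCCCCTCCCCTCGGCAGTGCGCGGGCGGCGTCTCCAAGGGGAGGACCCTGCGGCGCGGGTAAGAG

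Col4a5 and Col4a6, neighbours on the X chromosome, were the type IV genes with calls. Col4a5 gave 44 and 62.4 at 11.5 dpc, 69.5 and 72.9 at 12.5 dpc, 43.6 and 53.4 at 14.5 dpc, 135.2 and 116.5 at 16.5 dpc, then 77.2 and 91.4 at 18.5 dpc. Both samples of 16.5 dpc were above the other 8. It rose from 14.5 to 16.5 dpc by 1.14 ± 0.21 (adjusted p = 0.036, and 0.16 without replicate 1 of 16.5 dpc) and with age (0.10 ± 0.03 per day, adjusted p = 0.019). Between the end points it gave 0.54 ± 0.21 (adjusted p = 0.11), and 0.35 without replicate 1 of 11.5 dpc. Col4a6 gave 19.4 and 26 at 11.5 dpc, 15.8 and 38.3 at 12.5 dpc, 22.6 and 40.3 at 14.5 dpc, 65.3 and 78.5 at 16.5 dpc, then 57.7 and 94.1 at 18.5 dpc. The last 2 ages stood above the first 3 in every sample. Col4a6 rose in the trend test (0.20 ± 0.05 per day, adjusted p = 0.017), while the end points were not called (1.22 ± 0.42, adjusted p = 0.071). Col4a3 (0.86 ± 0.53) and Col4a4 (1.20 ± 0.61), the chains that join Col4a5 in kidney and lung basement membranes, were not called, and their array A probe sets stayed at or below 4.5 and 15.8.

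Among the remaining types, the multiplexins Col15a1 and Col18a1 carry anti-angiogenic fragments at their ends and lie next to basement membranes. Col18a1 gave 208.3 and 235.8 at 11.5 dpc, 307.3 and 331.1 at 12.5 dpc, 264.5 and 336.7 at 14.5 dpc, 402.3 and 389.8 at 16.5 dpc, then 243.1 and 227.5 at 18.5 dpc. This probe set, 99638_at, was highest at 16.5 dpc, and its end points differed by 0.08 ± 0.16 without a call (adjusted p = 0.80). The F test called it (adjusted p = 0.024, and 0.088 without replicate 1 of 16.5 dpc), a call that was lost without any 1 of the 4 samples of 16.5 and 18.5 dpc, and none of its other 3 tested probe sets was called. Those had their highest means at 12.5 dpc and not at 16.5 dpc: 199 against 129 for 101881_g_at, 171 against 105 for 101882_s_at and 90.6 against 74.9 for 162483_f_at. Col15a1 differed by -0.43 ± 0.28 between the end points and was not called.

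Col8a1, a short-chain collagen of vessel walls, gave 29.6 and 16 at 11.5 dpc, 31.6 and 34 at 12.5 dpc, 44.6 and 34.3 at 14.5 dpc, 77.9 and 58.3 at 16.5 dpc, then 48.3 and 47.5 at 18.5 dpc. It was lowest at 11.5 dpc and highest at 16.5 dpc. Col8a1 rose in the trend test (0.12 ± 0.03 per day, adjusted p = 0.023), with an uncalled difference of 0.74 ± 0.27 between the end points (adjusted p = 0.088), which was 0.49 without replicate 2 of 11.5 dpc. Col7a1, the collagen of anchoring fibrils under epithelia, gave 93.1 and 94.8 at 11.5 dpc, 123.8 and 128.3 at 12.5 dpc, 106.2 and 67.7 at 14.5 dpc, 103.3 and 81.6 at 16.5 dpc, then 127.6 and 148.8 at 18.5 dpc. Its 18.5 dpc samples were above its 11.5 dpc samples, and it was called in no comparison (0.48 ± 0.21, adjusted p = 0.15).

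Col26a1, a collagen first described in testis and ovary, was also called in no comparison. It gave 102.1 and 158.1 at 11.5 dpc, 199.7 and 199.2 at 12.5 dpc, 170.3 and 172.3 at 14.5 dpc, 219.9 and 148.3 at 16.5 dpc, then 121.3 and 144 at 18.5 dpc, and its samples of 11.5 and 18.5 dpc overlapped (0.05 ± 0.22, adjusted p = 0.92). Col23a1, a transmembrane collagen, gave 67.5 and 80.8, 124.8 and 76.8, 33.2 and 64.7, 77.3 and 105.5, and 39.6 and 162 at the 5 ages in order. Its replicates at 18.5 dpc were far apart, and the change was 0.15 ± 0.55 (adjusted p = 0.90). Col8a2, Col10a1, Col13a1, Col17a1 and Col25a1 did not pass the filter, with highest signals of 58.5, 29, 48.5, 13.8 and 41.7. The nearest probe sets on either side of the filter had second-highest signals of 45.4 (Col13a1) and 52.9 (Col14a1 on array A).

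The course over the ages is given here for each type, and differences between types were not tested. For each sample, the median over a type of the deviation of each gene from its own mean was taken on the log2 scale. Fibrillar genes went from -0.60 and -0.14 at 11.5 dpc to 0.84 and 0.25 at 16.5 dpc and 0.18 and 0.08 at 18.5 dpc, so their highest level was at 16.5 dpc with wide replicates. Type IV genes went from -0.23 and -0.31 to 0.48 and -0.05 and then 0.23 and 0.29. The 17 other genes went from -0.41 and -0.33 to 0.39 and 0.41 and then 0.24 and 0.26. The SD of their median within an age was 0.04, against 0.25 for the fibrillar and 0.22 for the type IV genes. A median over 17 genes of mixed types does not show how far single genes differed between replicates, and the cause of its smaller SD was not tested. At 16.5 dpc Col6a1 gave 671.9 and 490.3, higher in replicate 1 like 28 of the 30 tested collagen probe sets of array A. Col9a1, with 30.5 and 120.4, went the other way. The medians of the change between the end points were 0.52, 0.70 and 0.50 for fibrillar, type IV and other genes.

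**Figure D3:**
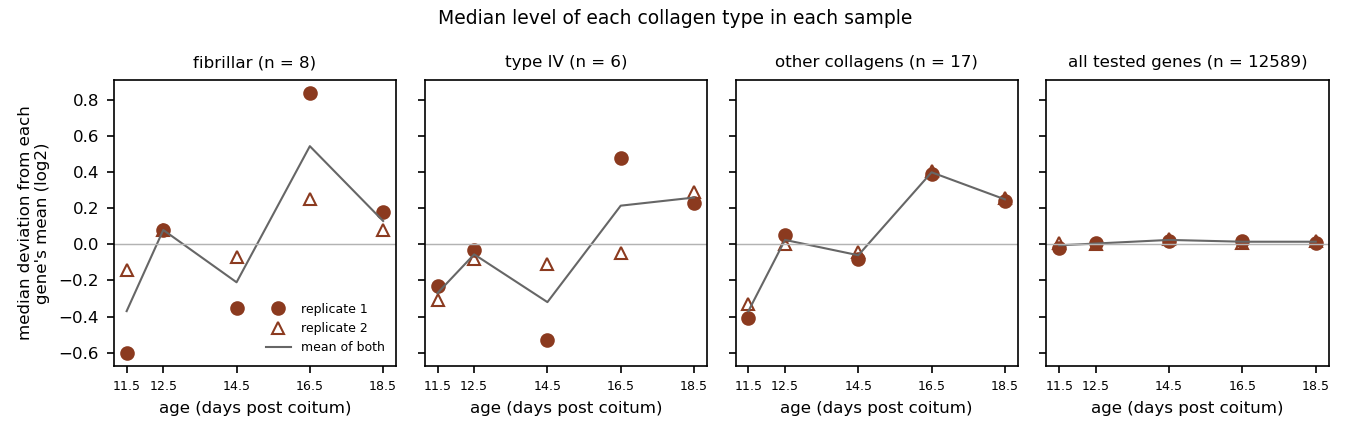
Median over the genes of a type of the log2 deviation of each gene from its own mean, against age, with a point per sample and a line through the mean of both samples. The 3 collagen panels lie below 0 at 11.5 dpc and above 0 at 18.5 dpc, while the medians of all 12589 tested genes stay between -0.02 and 0.03.

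The highest mean signal fell at 16.5 dpc for 14 of the 31 collagen genes (45.2%), beside 20% of all tested genes, and at 11.5 dpc for 1 of 31 (3.23%), beside 22.3%. By type, the peak lay at 16.5 dpc for 4 of 8 fibrillar, 2 of 6 type IV and 8 of 17 other genes. Array types differed: all 10 tested fibrillar probe sets of array A peaked at 16.5 dpc, beside 21.3% of all tested probe sets of that array. Of the 7 tested fibrillar probe sets of arrays B and C 0 did, beside 19% of all tested probe sets of the 3 arrays. On array A all 3 type IV and all 4 type VI probe sets also peaked at 16.5 dpc, and over all arrays 3 of 7 and 6 of 9 did. Of the fibril-associated and multiplexin probe sets of array A, 1 of 5 each peaked at 16.5 dpc. At that age replicate 1 was higher than replicate 2 in 38 of the 51 tested collagen probe sets.

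**Figure D4:**
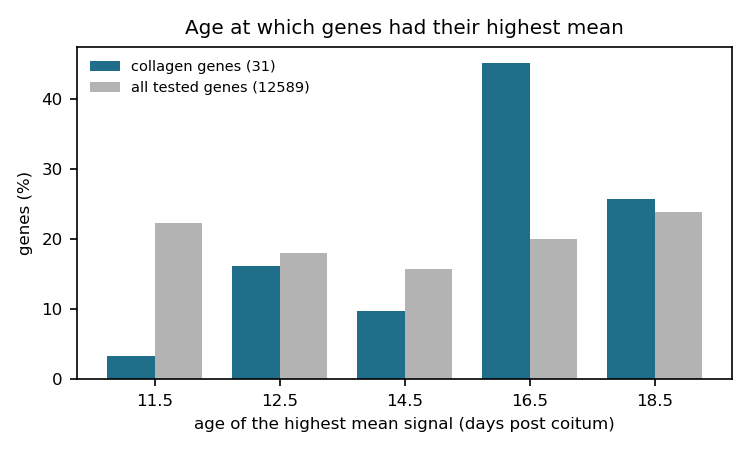
Percent of genes with their highest mean signal at each age, for the 31 tested collagen genes and for all 12589 tested genes, as bars from 0. The collagen bar is highest at 16.5 dpc (45.2%) and lowest at 11.5 dpc (3.23%), while the bars of all genes lie between 15.8% and 23.9%.

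Genes that process, bind or break down collagen were read from 7 lists. Their calls stand beside 17.5% of all tested genes called between the end points, 9.14% rising and 8.37% falling. For the trend test the share was 25%, with 13.1% rising and 11.9% falling. It was 2.17% from 12.5 to 14.5 dpc and 0.858% from 14.5 to 16.5 dpc. Collagen chains are hydroxylated and folded in the endoplasmic reticulum with the help of Serpinh1 (the chaperone HSP47), trimmed outside the cell, and cross-linked by lysyl oxidases. Of 15 tested genes of chain modification and folding, 1 rose and 1 fell between the end points, with a median of 0.09. Serpinh1 had 1435.5 and 1399 at 11.5 dpc and 821.4 and 971.3 at 18.5 dpc, and it fell by 0.66 ± 0.14 on the log2 scale (adjusted p = 0.0084). P3h3, a prolyl 3-hydroxylase, rose by 0.78 ± 0.23 (adjusted p = 0.037), from 46 and 73.5 to 100.4 and 125.3. In the trend test 1 gene of this list rose (P3h3) and 2 fell, Serpinh1 and the prolyl 4-hydroxylase chain P4ha2 (-0.08 ± 0.03 per day).

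Lox, the lysyl oxidase that cross-links fibrils, rose by 1.78 ± 0.29 (adjusted p = 0.0017). Its signals were 17.4 and 5.4 at 11.5 dpc, 27.1 and 36.9 at 12.5 dpc, 59 and 63.1 at 14.5 dpc, 99.8 and 66 at 16.5 dpc, then 86.9 and 65.6 at 18.5 dpc, so each sample from 14.5 dpc on was above each younger one. The other tested gene of cross-linking, Loxl1, was not called (-0.28). Of the 4 tested genes of propeptide removal, Furin, a protease that activates many precursors, rose (0.65 ± 0.17, adjusted p = 0.024), and Bmp1, which cuts the end of fibrillar procollagens, had -0.81 without a call.

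Proteins that sit on fibrils moved in both directions: 2 of 11 tested genes rose and 2 fell between the end points, with a median of 0.24. The small proteoglycans Dcn and Lum, which regulate fibril spacing, rose by 1.35 ± 0.19 (adjusted p = 7.7e-04) and 1.54 ± 0.30 (adjusted p = 0.0049). Dcn also rose from 12.5 to 14.5 dpc (1.10 ± 0.19, adjusted p = 0.013), from 381.5 and 498.9 to 1017.8 and 891.2. Vcan, a large hyaluronan-binding proteoglycan, fell by 2.16 ± 0.42 on the log2 scale (adjusted p = 0.0046), and Postn, a matrix protein that binds collagen, fell by 1.15 ± 0.26 (adjusted p = 0.011). The trend test called 3 genes of this list as rising and 2 as falling, these 4 and Bgn, a small proteoglycan like Dcn, which rose (0.19 ± 0.04 per day, adjusted p = 0.0042).

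Among 18 tested basement membrane partners, 2 rose and 3 fell between the end points, with a median of -0.00. Fbln2 and Frem2 rose (0.92 ± 0.19 and 1.07 ± 0.25, adjusted p = 0.007 and 0.012). Pxdn, the peroxidase that cross-links type IV collagen, fell by 1.52 ± 0.19 (adjusted p = 2.0e-04), with 524.2 and 453.4 at 11.5 dpc and 167.6 and 151.7 at 18.5 dpc. Nid2, a linker of laminin and type IV networks, and Lamb2, a laminin chain, also fell (-0.78 ± 0.18 and -0.69 ± 0.20, adjusted p = 0.011 and 0.039). Hspg2, the heparan sulfate proteoglycan perlecan, rose from 14.5 to 16.5 dpc, from 88.1 and 67 to 184.6 and 178.2 (1.09 ± 0.20, adjusted p = 0.035). From 12.5 to 14.5 dpc 2 genes of this list rose, Frem2 (1.20 ± 0.25, adjusted p = 0.031) and the laminin chain Lama1 (0.77 ± 0.16, adjusted p = 0.039), and in the trend test 3 of 18 rose and 4 fell. Of 9 tested genes of collagen breakdown and uptake and 6 collagen receptors, limma called 0 between the end points, with 3 and 1 at an unadjusted p under 0.05 and medians of 0.08 and -0.34. With age, however, 2 of the 9 breakdown and uptake genes rose in the trend test, the lysosomal protease Ctsb (0.07 ± 0.02 per day, adjusted p = 0.019) and the metalloproteinase inhibitor Timp3 (0.07 ± 0.02, adjusted p = 0.026). The other 2 called fell, the membrane collagenase Mmp14 (-0.08 ± 0.02, adjusted p = 0.04) and the collagen uptake receptor Mrc2 (-0.10 ± 0.03, adjusted p = 0.042), and the trend test called none of the 6 receptors (1 at an unadjusted p under 0.05).

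**Figure D5:**
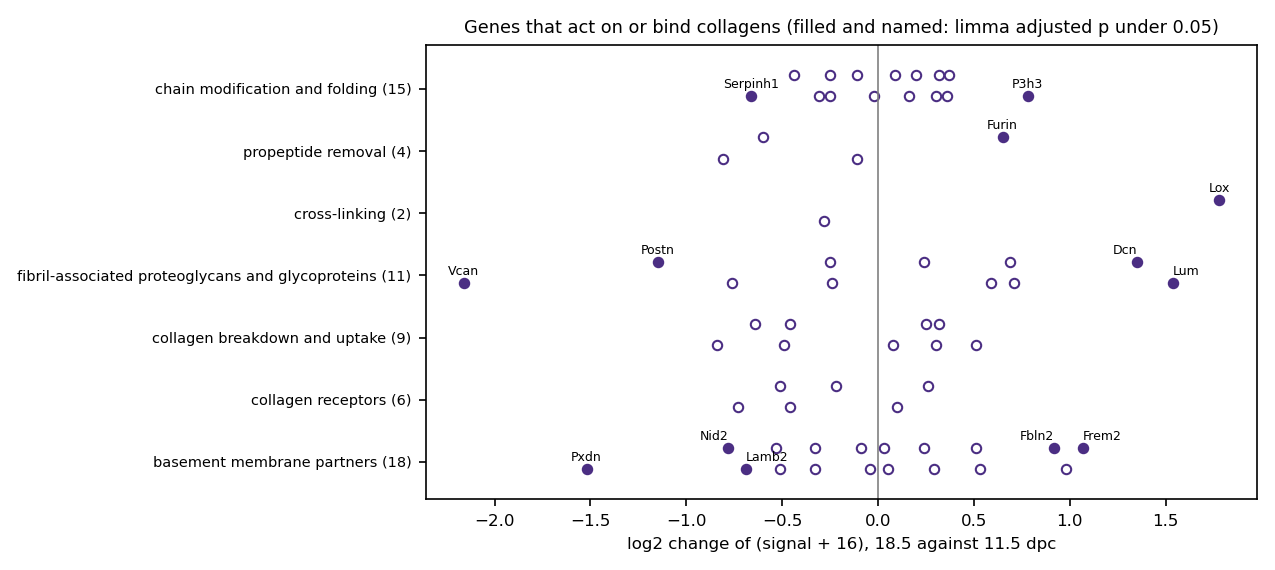
Log2 change of (signal + 16) between 11.5 and 18.5 dpc of tested genes that process, bind or break down collagen, a row per list with its number of tested genes and filled, named points for genes called by limma. Lox (1.78), Lum (1.54) and Dcn (1.35) lie farthest to the right, and Vcan (-2.16) and Pxdn (-1.52) farthest to the left.

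Markers of the cell types that could hold these transcripts were read beside the collagens. Calls in each marker list stand beside 9.14% of all tested genes rising and 8.37% falling between the end points. Of 11 stromal and mesenchymal markers, 4 were under 50 on every array and 6 were tested: 0 rose and 2 fell between the end points (Tcf21, -1.68, and Nr2f2, -1.67), with summed signals of 2194 and 2228 at 11.5 dpc, 1744 and 2092 at 12.5 dpc, 1486 and 1404 at 14.5 dpc, 2035 and 1521 at 16.5 dpc, then 1167 and 1223 at 18.5 dpc. Of 12 tested endothelial markers 0 rose and 4 fell, with sums of 1712 and 1689 at 11.5 dpc and 1253 and 1469 at 18.5 dpc. Their median change was -0.10, and 5 of the 12 estimates were above 0. Of 6 tested smooth muscle and pericyte markers 1 rose (Tagln, 1.08) and 1 fell (Rgs5, -1.01), with sums of 880 and 794 and of 950 and 954. Most of the drop in the stromal sum lay in Tcf21 (means of 882 at 11.5 dpc and 261 at 18.5 dpc) and Nr2f2 (502 and 145). Of the other stromal markers, Ptch1 had means of 293 and 284, and Pdgfra had 356 and 373, with its highest mean, 630, at 16.5 dpc. The weakly detected Prrx1 (51.7 and 18.6) and Twist2 (47.7 and 35) were lower at 18.5 dpc without a call. Over the 6 tested stromal markers the median change was -0.64, and 1 estimate was above 0.

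Surface epithelium markers rose between the end points in 4 of 5 tested genes, beside 9.14% of all tested genes. Their sums were 969 and 786 at 11.5 dpc and 2874 and 2740 at 18.5 dpc. Pregranulosa markers rose in 5 of 8, with sums of 11047 and 12917 and of 12606 and 13718. Most of this sum was Amhr2 (means of 8366 and 8283), so it hides smaller signals. Foxl2 had means of 92 and 730 and Irx3 48.4 and 526, while Wnt4 had 1613 and 1202. Germ cell markers rose in 5 of 8 and fell in 1, with sums of 932 and 820 and of 3750 and 3656. Pregranulosa and germ cells, which define the labelled tissue, were thus both measured. Of 3 tested mesonephric, 4 cartilage and bone and 5 macrophage markers 0 were called by limma, with 1, 1 and 0 at an unadjusted p under 0.05, and Tubb3 fell of 2 tested nerve markers. The part of these cell types in the collagen values was not tested.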

How the data were processed

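Total RNA of pooled mouse embryonic ovaries at 5 ages was hybridised to 3 Affymetrix array types, 10 arrays of each. The authors deposited 1 signal intensity per probe set and array, scaled to a mean of 125 per the labels' protocols; the software and detection calls are not given in the sources used here. Arrays A, B and C of one sample number were treated as 1 sample, although the labels do not state that they share RNA.

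Genes were named from the platform annotation where a probe set had 1 symbol. Signals were used as log2(signal + 16). Probe sets at 50 or more on at least 2 of 10 arrays were fitted per array type with limma 3.58.1 (R 4.3.3, trended empirical Bayes, 5 ages, 5 residual degrees of freedom), and p-values were adjusted over the 3 types together. A gene stands for the brightest of its tested probe sets. Members, lists and tests were chosen with earlier results of these data known. Collagen genes given with all sample values were those called in any comparison (at most 16), the brightest of each class on each array type, and the chain partners of types I, IV and VI; other members are given by range and count. Of each pathway list the genes called between the end points are named. Those called in other comparisons are named in part, and the F test calls of these lists are not given. On simulated data with the spread of these arrays, the comparison of 18.5 with 11.5 dpc recovered 16.4% of 110 probe sets changed by 1 log2 unit. It recovered 62.2% of 90 changed by 2, among 24825 probe sets. The data had a far larger share called in this comparison, 17.5% of genes. The adjusted p-value was therefore stricter in the simulation, and recovery in the data may be higher. Alternatives were other pseudocounts, filters, normalization and variance models, array A or plain probe sets alone, a replicate block, and leaving out samples.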

Additional observations from a re-analysis of the deposited data

How the results depend on the processing

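The 5 calls between 11.5 and 18.5 dpc were within 1.5 times of that count in each alternative except leaving out a sample, where the count ran from 3 to 7, the lowest without either 18.5 dpc sample. Calls when leaving out samples ran from 0 to 2 for 11.5 to 12.5 dpc, 0 to 0 for 12.5 to 14.5 dpc, 0 to 5 for 14.5 to 16.5 dpc, 0 to 1 for 16.5 to 18.5 dpc, 5 to 12 for the trend and 5 to 11 for the F test. From 14.5 to 16.5 dpc the 2 calls became 0 with no filter and 1 without the variance trend. The 12 trend calls became 7 with array A alone, and 7 without both samples of 16.5 dpc, a setting chosen after seeing the data, which left 4 F test calls. Medians of the change from 11.5 to 18.5 dpc ran from 0.29 to 0.68 for fibrillar, 0.51 to 0.70 for type IV and 0.47 to 0.69 for other genes when leaving out samples. The type IV median was 0.42 with a pseudocount of 64, 0.22 with a filter at 100 and 0.34 on array A. That of other genes was 0.61 with a pseudocount of 1, 0.35 with 64, 0.32 with no filter, 0.61 with a filter at 100 and 0.40 after quantile normalization. The cause of these shifts was not tested.

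Changes between 11.5 and 18.5 dpc that were uncalled with all samples and turned sign when 1 sample of these ages was left out ran from -0.00 to 0.16 (Col18a1), -0.00 to 0.83 (Col1a2), -0.69 to 0.99 (Col23a1), -0.23 to 0.33 (Col26a1), -0.03 to 0.47 (Col4a1), -0.27 to 0.38 (Col4a2) and -0.09 to 0.53 (Col5a2). After quantile normalization Col26a1 was -0.03. Col5a1 was 0.31 on array A alone and 0.31 with plain probe sets alone. Sample numbers did not visibly pair samples across ages: correlations of same-numbered deviations ran from -0.16 to 0.22 on array A, from -0.09 to 0.10 on B and from -0.03 to 0.07 on C. With the replicate block 5 genes were called between 11.5 and 18.5 dpc, 2 from 14.5 to 16.5 dpc and 12 in the trend, and Col5a2 left the F test calls, which numbered 9. It changed no other call. In the simulation, differences of 1 log2 unit were often missed at 2 samples an age. The adjusted p-value was stricter there than in the data, so the share missed in the data may be smaller. An uncalled gene is still not shown to be unchanged.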
